A study of Mus musculus with 2 samples.

Results

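The genes described here are those of the mitochondrial carriers and of the protein import machinery of mitochondria, taken as every gene symbol of the form Slc25a, Ucp1 to Ucp3, Timm or Tomm. They comprised 62 genes (44 carriers and 18 import genes) with 810 probe sets, out of 22296 genes with a probe set of their own on the array. A probe set is a small group of probes that reads a stretch of 1 exon, so a gene is read by several probe sets.

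The study compared AgRP neurons, neurons of the hypothalamus that promote feeding through agouti-related peptide, collected by FACS from FoxO1 KO mice and from FoxO1 heterozygous KO mice. The series calls its comparison cells control, and the label of that sample gives a heterozygous knockout, so both groups carry a FoxO1 knockout allele. All animals were of mixed background, freely fed, littermates matched for age and sex, and neither their age, the way the allele was deleted nor any pooling of animals is given in the sources used here. There was 1 exon-level microarray per genotype and no replicate, so no test is possible, and every value below describes 2 arrays.

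Carrier proteins move nucleotides, phosphate, organic acids, amino acids and cofactors across the inner mitochondrial membrane, and the uncoupling proteins belong to the same family. Nearly all mitochondrial proteins are made in the cytosol and enter through the outer membrane translocase (the Tomm proteins). Small Timm chaperones of the intermembrane space then hand carrier proteins to the Timm22 translocase, while precursors with a cleavable leader go to the translocase built on Timm23, Timm17 and Timm50. In AgRP neurons, Ucp2 is known for its part in the response to ghrelin.

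Values are on the log2 scale, where 1 unit is a 2-fold change, and a difference is KO minus heterozygous KO. A gene's difference is the median over those of its probe sets that averaged 5.86 or more, 5.86 being the array-wide median. The SD beside it is over those probe sets and is not an error between mice. A gene needed 3 of them to be evaluated, and 58 of the 62 members qualified. Of the 810 member probe sets 594 were above that level. Tomm20, Timm13, Timm8a2 and Slc25a5 had fewer, and their values are given separately. The 2-fold rule calls a gene when its difference is 1 or more in size and 75% or more of its probe sets share that direction.

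The targeted gene, Foxo1, stood at 7.46 in KO cells, against 7.98 in heterozygous KO cells. Its difference of -0.48 (SD 0.53) came from 8 probe sets, all lower, and was not called. Agrp, the defining marker of the sorted cells, stood at 12.4 in KO cells, against 12.0 in heterozygous KO cells. Npy stood at 12.2 in KO cells, against 12.3 in heterozygous KO cells, yet 4 of its 6 probe sets were higher in KO cells and its difference was 0.14 (SD 0.19). Gpr17, the target named in the title, stood at 6.40 in KO cells, against 8.67 in heterozygous KO cells. The 12 AgRP neuron markers had a median difference of 0.14, with 8 above 0, where 34.8% of all genes were. Markers of oligodendrocyte precursors and of mature oligodendrocytes were lower on the KO array in 9 of 9 and 10 of 10 evaluated genes, where 65.2% of all genes were, with medians of -1.59 and -1.07. Summed on a linear scale, the precursor markers gave 1293 in KO cells, against 3025 in heterozygous KO cells, and the mature ones 1663 in KO cells, against 4497 in heterozygous KO cells. Endothelial and pericyte markers were below 0 in 7 of 7 genes, none of them called, with a median of -0.18. Their linear sums were 743 in KO cells, against 1251 in heterozygous KO cells. The largest gaps in level were those of Cdh5 (6.45 in KO cells, against 8.03 in heterozygous KO cells) and Rgs5 (7.07, against 8.43). Astrocyte, tanycyte and microglia lists had medians of -0.17, -0.24 and -0.11, with 3 of 8, 1 of 6 and 2 of 7 genes above 0. Markers of other hypothalamic neurons had a median of -0.40, with 2 of 8 above 0 (Pomc at 0.28 and Cartpt at 0.33). Their lowest values were Slc17a6 at -4.29 and Oxt at -1.01, the 2 that were called. The lowest value of any probe set was 2.55 in KO cells and 2.53 in heterozygous KO cells. A reading of 0 was therefore not possible, and these values cannot show whether a marker was absent. Slc17a6 stood at 5.40 in KO cells, under the minimum level of 5.86, against 9.11 in heterozygous KO cells. The part of the listed cell types in the differences below was not tested. In sorted cells read as bulk RNA, fewer cells of a type and less RNA per cell cannot be told apart.

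The import genes lay higher than the carriers, a gap that 1 array per genotype cannot test. The 15 evaluated import genes had a median difference of 0.22 (quartiles -0.08 and 0.69), with 9 above 0 and 6 below. The 43 evaluated carriers had a median of -0.10 (quartiles -0.24 and 0.09), with 14 above 0 and 29 below. Genes listed under older symbols are in neither count. Among import genes these were Timm10b at -0.76, Timm29 at -0.60 and Timm21 at 0.25. Among carriers they were Slc25a47 at -0.19, Slc25a48 at -0.24 and Slc25a53 at -0.33. Over all 16639 evaluated genes the median was -0.11, 34.8% lay above 0 and 65.2% below, so the carriers lay close to the array as a whole. Without the minimum level for probe sets, the median of the import genes was 0.056 and that of all genes -0.086.

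Under the 2-fold rule 2 of the 58 evaluated members were higher on the KO array, the import genes Tomm7 and Timm8b, where 1.13% of all genes were. None was called lower, where 1.12% of all genes were. A 1.5-fold rule added Tomm5, Timm22 and Slc25a11 among the higher genes (5 in all, against 3.28% of all genes) and called Slc25a25 alone lower (against 4.9%). The difference was smaller than 0.5 in size for 47 of the 58.

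**Figure D1:**
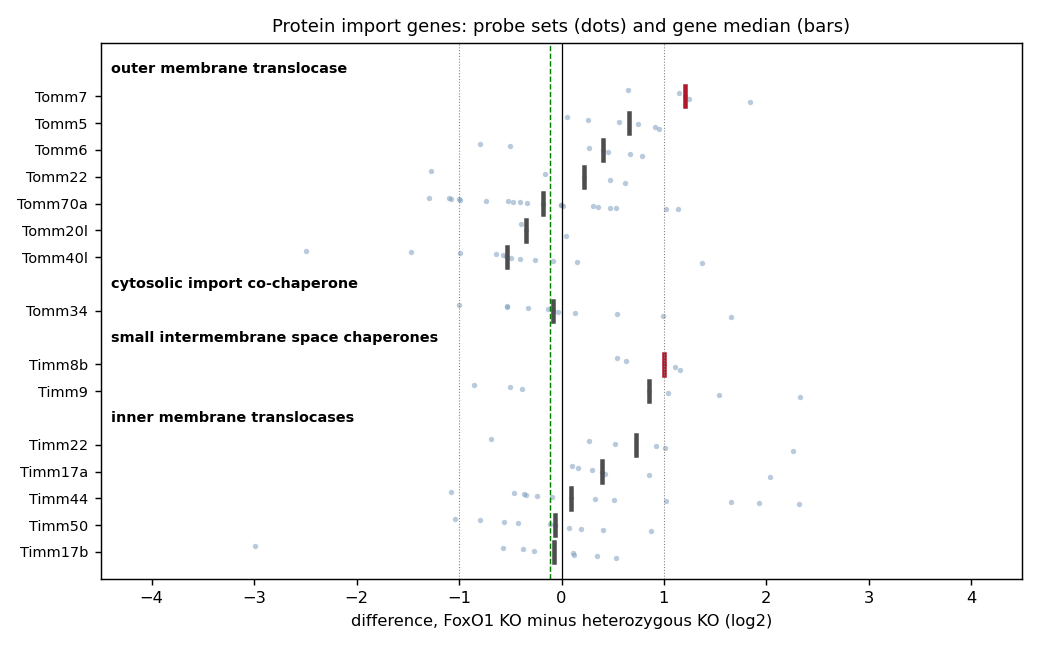
Difference between the FoxO1 KO and the heterozygous KO array (log2, horizontal axis) for each evaluated import gene, by role. Dots are probe sets, bars the gene medians (red where called higher), dotted lines mark 1 and -1, and the dashed green line is the median of all genes at -0.11. Tomm7, Timm8b, Timm9, Timm22, Tomm5, Tomm6 and Timm17a lie to the right, in that order from the highest, while Tomm40l lies at -0.53.

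The outer membrane translocase held the gene with the largest higher difference of the family. Tomm7, a small subunit that governs assembly of the complex and in human cells helps to keep the kinase PINK1 at the outer membrane, had probe set values of 12.50, 12.21, 11.78, 11.26 and 9.75 on the KO array, against 11.85, 11.002, 9.94, 10.01 and 8.60 for the same probe sets on the heterozygous array. Each of the 5 was higher on the KO array, by 0.65 to 1.84. The median difference was 1.20 (SD 0.42), or 2.30-fold. Tomm7 passed the 2-fold rule under each of the 10 other settings of the gene summary that were run, at 1.19 to 1.31. Settings that changed only the minimum level or the number of probe sets needed could not alter its value, since all 5 exceeded every minimum used. Adding probe sets with several symbols could not alter it either, as none of them named Tomm7.

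Tomm5 and Tomm6 are the other small subunits around the channel. Tomm5 had values from 7.53 to 11.43 (median 9.49) on the KO array and from 6.97 to 10.63 (median 9.01) on the heterozygous array. All 6 of its probe sets were higher on the KO array, by 0.05 to 0.95, with a median difference of 0.65 (SD 0.36). Tomm6 had a difference of 0.40 (SD 0.60), with 5 of 7 probe sets higher.

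The receptors of the complex lay nearer to 0. Tomm22, the central receptor, had a difference of 0.22 (SD 0.76), with 3 of 5 probe sets higher and 1 at -1.28. Tomm70a, the receptor that takes carrier precursors from cytosolic chaperones, was at -0.18 (SD 0.69), with 14 of 21 probe sets lower. The single probe set of Tomm20, the receptor for leader sequences, read 8.44 in KO cells and 8.63 in heterozygous KO cells. The 2 paralogs of translocase subunits were both lower on the KO array, Tomm20l at -0.35 (SD 0.24, but 0.056 without the minimum level) and Tomm40l at -0.53 (SD 0.88, 11 of 13 probe sets lower). Tomm34, a cytosolic co-chaperone of import, stood at -0.08 (SD 0.72). No probe set had Tomm40, the channel itself, as its only symbol, and Tomm40 was not analysed here.

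Among the small chaperones of the intermembrane space, Timm8b was called higher and Timm9 was split. Timm8b had probe set values of 12.02, 11.82, 11.31, 9.20 and 8.68 on the KO array, against 11.39, 10.71, 10.76, 8.20 and 7.53 on the heterozygous array. Each of the 5 was higher on the KO array, by 0.55 to 1.15, and the median of 1.00 (SD 0.28) lay just inside the 2-fold rule. It was 0.89, and not called, with the mean over probe sets in place of the median. The member nearest outside the limit was Slc25a27 at 0.89.

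Timm9, which forms the chaperone ring for carrier precursors with Timm10, had values from 6.73 to 11.005 (median 8.60) on the KO array and from 6.12 to 10.15 (median 8.26) on the heterozygous array. Of its 7 probe sets 4 were higher, by up to 2.33, and 3 were lower, by as much as -0.85, so the median of 0.85 (SD 1.18) describes no common shift. With all 14 probe sets of the gene it stood at 0.01. The 1 usable probe set of Timm13 read 7.88 in KO cells and 7.09 in heterozygous KO cells, and that of Timm8a2 read 6.28 in KO cells and 5.87 in heterozygous KO cells.

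Annotation limits the view of this group. Timm10 and Timm13 are named together on 12 further probe sets, which cannot be given to either gene and belong to no member. All 12 were higher on the KO array, by 0.04 to 1.08, with a median of 0.55 (SD 0.31). Timm10b, a chaperone that stays bound to the Timm22 translocase, is on the array under its older symbol Fxc1, which the name rule does not take. It ran the other way, at -0.76 (SD 0.69), with 7 of 8 probe sets lower.

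**Figure D2:**
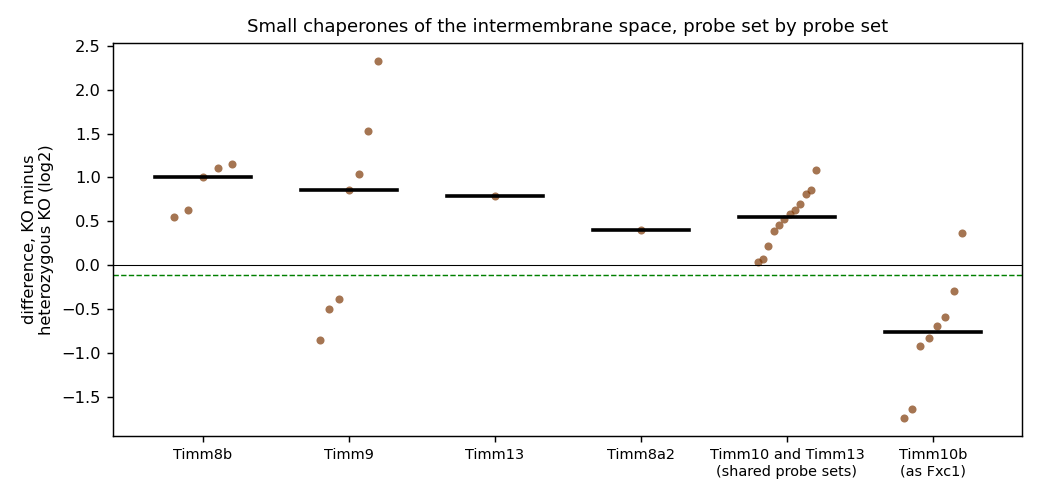
Difference between the FoxO1 KO and the heterozygous KO array (log2, vertical axis) for each probe set above the minimum level (dots) of the small chaperone genes, with medians as bars and the median of all genes as a dashed green line. Timm8b and the probe sets shared by Timm10 and Timm13 lie above 0 throughout, Timm9 lies on both sides, and Timm10b has 7 of 8 probe sets below 0.

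The promoter of Timm8b is shown because it is the 1 called member with an entry in the promoter table. The sequence is that of RefSeq on build GRCm38.p6, from 250 bases before to 50 bases after the start, read 5′ to 3′ on the strand of the gene. The Timm8b promoter lies at chr9:50603651-50603950 on the + strand. Capitals mark matches to TCAAGGTCA (the element of estrogen-related receptors), CCGGAAG (the ETS core) and the NRF1 element (here GCGCGTGCGC), searched on both strands.

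Timm8b: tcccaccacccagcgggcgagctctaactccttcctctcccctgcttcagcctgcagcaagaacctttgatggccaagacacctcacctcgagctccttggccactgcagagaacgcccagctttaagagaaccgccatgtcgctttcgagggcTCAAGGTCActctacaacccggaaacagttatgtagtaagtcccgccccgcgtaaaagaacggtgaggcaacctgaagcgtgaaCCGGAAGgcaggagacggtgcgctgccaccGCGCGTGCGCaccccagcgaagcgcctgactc

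The matches begin at positions -96, -12 and 18, counted from the first base of the gene as 0, and they do not overlap. A match is a description and not a binding site. Of all 32851 promoters in the table, 0.423% held the first of these motifs, 8.86% the second and 4.60% the third. Over the 62 promoters of the 51 members in the table, 1, 12 and 4 held them, or 1.61%, 19.4% and 6.45%. The FoxO core TGTTTAC was in 0 of the 62 windows and in 3.65% of all promoters.

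The inner membrane translocases showed no common direction. Timm22, the channel that inserts carrier proteins, had values from 6.21 to 8.92 (median 7.69) on the KO array and from 5.71 to 8.40 (median 6.69) on the heterozygous array. Its difference was 0.72 (SD 0.97), with 5 of 6 probe sets higher and a highest value of 2.26. It was 0.40 when 2 more probe sets with several gene names were used, and 1.01, past the 2-fold rule, with the minimum level at the 75th percentile. Timm17a, a channel subunit of the other translocase, was higher in 7 of 7 probe sets, by 0.10 to 2.03, with a median of 0.39 (SD 0.67).

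Its paralog Timm17b stood at -0.08 (SD 1.12), with 4 probe sets on each side of 0 and 1 at -2.99. Timm44, which tethers the import motor, stood at 0.10 (SD 1.03) and the receptor Timm50 at -0.06 (SD 0.54). Timm29, a partner of TIMM22 in human cells, is listed under an older symbol and was at -0.60 (SD 0.61, 9 of 11 probe sets lower). Timm21, also under an older symbol, was at 0.25 (SD 0.43, 3 of 4 probe sets higher). No probe set had Timm23 as its only symbol, and Timm23 was not analysed here.

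**Figure D3:**
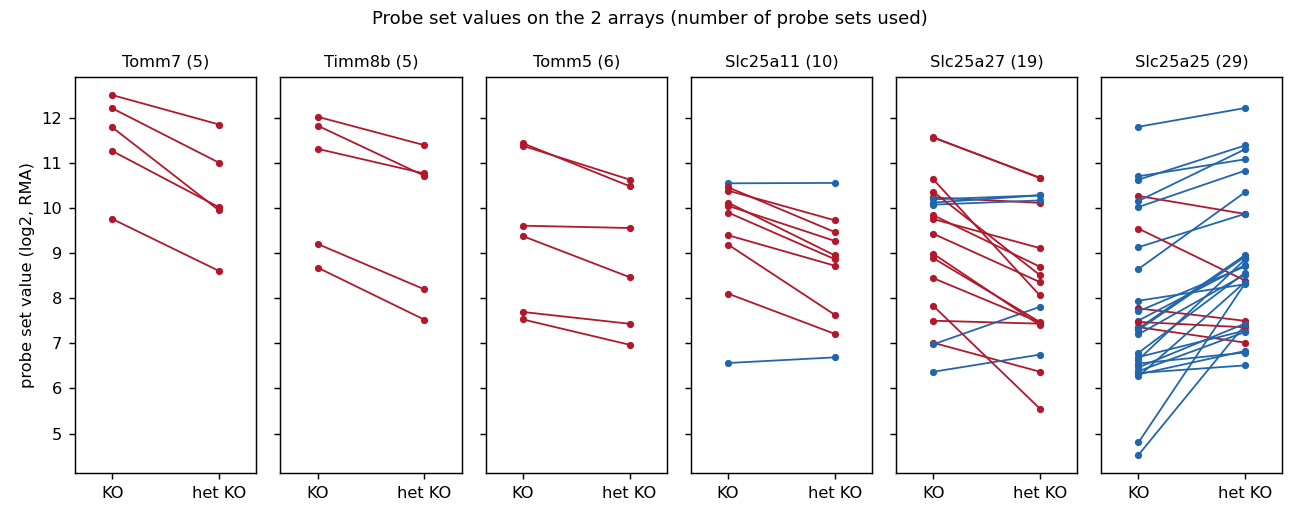
Probe set values (log2, vertical axis) of 6 members on the FoxO1 KO array (left of each panel) and the heterozygous KO array (right), 1 line per probe set above the minimum level, red where higher on the KO array and blue where lower. All lines of Tomm7, Timm8b and Tomm5 are higher on the KO array, and 24 of 29 lines of Slc25a25 are lower there.

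The carriers of ADP, ATP and phosphate, which supply and empty the ATP synthase, differed little. Slc25a4, the adenine nucleotide carrier of heart, muscle and brain, had values from 6.32 to 13.03 (median 11.27) on the KO array and from 6.77 to 12.88 (median 11.15) on the heterozygous array. It was higher in 10 of 11 probe sets by a median of 0.33 (SD 0.30). Slc25a3, the phosphate carrier, stood at 0.05 (SD 0.55), and Slc25a31, the form of the germ line, at -0.01 (SD 0.44). Slc25a5, the widely expressed form, had 2 probe sets of its own, at -0.43 and 0.18, and 10 that it shares with the gene model EG433923, at a median of -0.12 (SD 0.50).

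Carriers of ATP-Mg, coenzymes and nucleotides had a median of -0.22 over 10 genes, with 3 above 0, where 34.8% of all genes were. Slc25a25, a calcium-regulated carrier that exchanges ATP-Mg for phosphate, had the lowest difference of the family. Its values ran from 4.53 to 11.80 (median 7.36) on the KO array and from 6.51 to 12.21 (median 8.53) on the heterozygous array. Of 29 probe sets 24 were lower on the KO array, with a median difference of -0.81 (SD 1.01), or 1.75-fold, and a range from -3.53 to 1.15. Under the 10 other settings of the gene summary it ran from -0.92 to -0.70.

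Slc25a25 has 3 start sites in the promoter table, all on chromosome 2 and the - strand, and its probe sets spread widely. Which probe set reads which start is not known here. The windows of the first and last start are shown, at chr2:32451421-32451720 and chr2:32424017-32424316, because these 2 hold a searched motif. Capitals mark CCGGAAG, at position 7, in the first window, and TGACGTCA (the cAMP response element), at position -150, in the second. That element was in 1.79% of all promoters and in 2 of the 62 member windows, those of Slc25a25 and Slc25a36.

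Slc25a25, first start: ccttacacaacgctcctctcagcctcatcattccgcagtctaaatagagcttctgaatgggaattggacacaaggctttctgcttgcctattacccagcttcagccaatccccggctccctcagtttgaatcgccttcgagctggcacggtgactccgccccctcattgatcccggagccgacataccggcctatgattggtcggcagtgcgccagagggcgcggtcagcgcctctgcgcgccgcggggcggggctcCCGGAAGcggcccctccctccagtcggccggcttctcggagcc
Slc25a25, last start: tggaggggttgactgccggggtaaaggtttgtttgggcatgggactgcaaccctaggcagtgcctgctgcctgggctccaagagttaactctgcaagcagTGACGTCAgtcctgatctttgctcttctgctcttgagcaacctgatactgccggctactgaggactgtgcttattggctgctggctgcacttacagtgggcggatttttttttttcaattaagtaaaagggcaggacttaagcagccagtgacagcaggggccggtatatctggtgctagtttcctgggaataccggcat

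The related ATP-Mg carriers lay on both sides of 0. Slc25a23 was at -0.42 (SD 1.03), and at 0.11 with the minimum level at the 75th percentile. Slc25a41 was at -0.27 (SD 0.20) and Slc25a24 at 0.29 (SD 0.59), or -0.29 with that higher minimum. Slc25a17, the peroxisomal carrier of coenzymes, stood at -0.45 (SD 1.43) and was split, with 5 probe sets from -3.19 to -1.06 beside 4 above 0. Slc25a32, which carries folate and FAD, was highest of the group at 0.79 (SD 1.36), with 6 of 9 probe sets higher, and stood at 0.19 without the minimum level.

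Carriers of di- and tricarboxylates spread around a median of -0.00319 over 4 genes. Slc25a11 exchanges 2-oxoglutarate for malate in the malate-aspartate shuttle. It had values from 6.56 to 10.55 (median 9.97) on the KO array and from 6.69 to 10.55 (median 8.91) on the heterozygous array. Of its 10 probe sets 8 were higher on the KO array, with a median of 0.83 (SD 0.51), or 1.78-fold, and 2 were close to 0, at -0.12 and -0.01. The other carriers of the shuttle, the aspartate-glutamate exchangers Slc25a12 and Slc25a13, stood at 0.04 (SD 0.80) and -0.17 (SD 0.34). The dicarboxylate carrier Slc25a10 was at 0.21 (SD 1.30), the citrate carrier Slc25a1 at -0.22 (SD 0.82) and the oxodicarboxylate carrier Slc25a21 at -0.33 (SD 0.31).

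The 13 carriers of amino acids, carnitine, glutathione and the methyl donor S-adenosylmethionine kept within a narrow range, with a median of -0.10 and an SD over genes of 0.18. Slc25a26, the S-adenosylmethionine carrier, was highest at 0.16 (SD 0.65), and the ornithine carrier Slc25a2 lowest at -0.35 (SD 0.40). The glutamate carrier Slc25a22 stood at -0.10 with an SD of 1.28, and its 18 probe sets ran from -1.60 to 3.98. The iron carriers Slc25a28 and Slc25a37 were at -0.02 (SD 0.35) and -0.05 (SD 0.74).

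The 3 uncoupling proteins lay below 0, as 65.2% of all genes did, while 2 of their relatives lay above. The median of all genes was -0.11. Ucp2 had values from 6.18 to 11.44 (median 8.80) on the KO array and from 6.08 to 11.64 (median 8.67) on the heterozygous array. The median level was higher in KO cells, yet 10 of 12 of its probe sets were lower on the KO array, by a median of -0.19 (SD 0.36). Ucp1, the uncoupling protein of brown fat, was at -0.35 (SD 0.78, or 0.027 as a mean over probe sets), and Ucp3, that of muscle, at -0.11 (SD 0.28).

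Slc25a27, also called UCP4 and found mainly in brain, had values from 6.37 to 11.56 (median 9.75) on the KO array and from 5.55 to 10.67 (median 8.36) on the heterozygous array. Its difference was 0.89 (SD 0.92), with 14 of 19 probe sets higher. Slc25a14, also called UCP5, was higher in 13 of 15 probe sets, at 0.52 (SD 0.64). Slc25a30, the third relative, was at -0.07 (SD 0.48). The 5 carriers grouped without an agreed substrate were all below 0, from -0.44 for Slc25a35 to -0.08 for Slc25a45, where 65.2% of all genes were below 0.

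**Figure D4:**
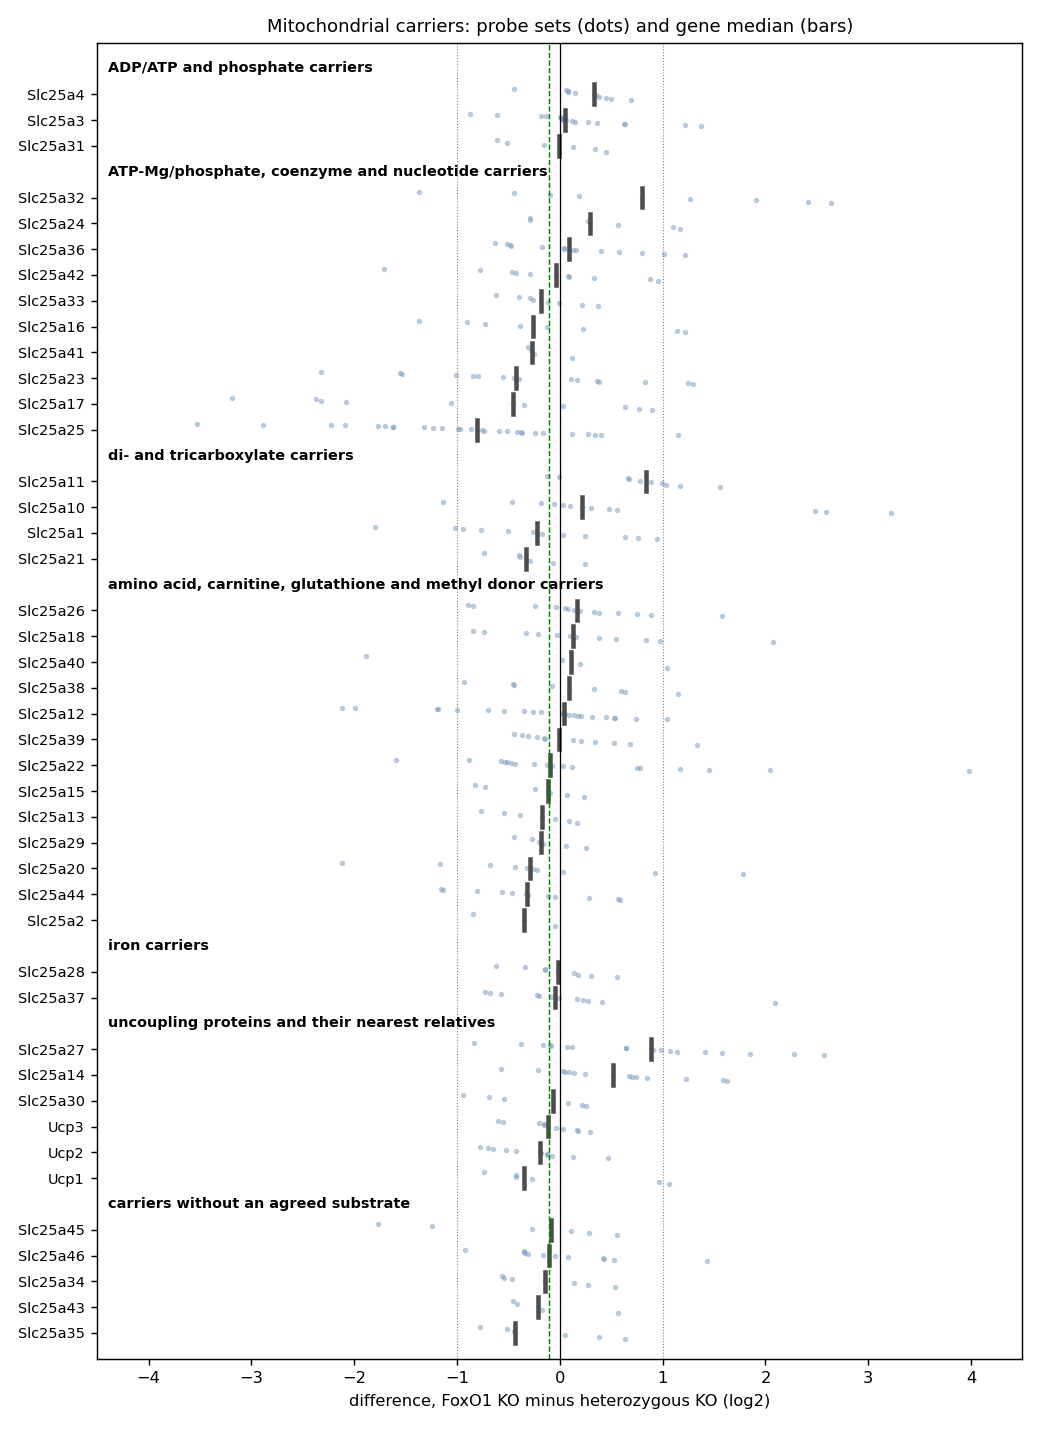
Difference between the FoxO1 KO and the heterozygous KO array (log2, horizontal axis) for each evaluated carrier gene, by substrate group. Dots are probe sets, bars the gene medians, dotted lines mark 1 and -1, and the dashed green line is the median of all genes at -0.11. Most medians lie within 0.5 of 0, with Slc25a27 at 0.89, Slc25a11 at 0.83 and Slc25a32 at 0.79 on the right and Slc25a25 at -0.81 on the left.

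Probe sets of 1 gene often disagreed. A 2-fold or larger difference was higher on the KO array in 66 and lower in 49 of the 594 member probe sets. These are 11.1% and 8.25%, against 9.24% and 11% of all probe sets with 1 gene symbol above the same level. In 13 genes both kinds occurred. The median SD over probe sets was 0.62 in the members and 0.68 in all evaluated genes. Every probe set above the minimum level was higher on the KO array in 4 members (Tomm7, Timm8b, Tomm5 and Timm17a), where 2.46% of all genes had this pattern. Every such probe set was lower in 1 member (Slc25a2), where 5.15% had this pattern.

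The import genes were set beside other nuclear genes for mitochondrial proteins. Complex I subunits had a median difference of 0.37 over 33 genes, with 28 above 0, 3 called higher and 1 called lower, where 34.8% of all genes were above 0, 1.13% were called higher and 1.12% lower. Mitochondrial ribosomal proteins had a median of 0.20 over 71 genes, with 53 above 0, 5 called higher and none lower, against the same shares. The import median of 0.22 lay between these values, and the carrier median of -0.10 below both. No test of these gaps is possible with 1 array per genotype.

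Genes with few probe sets had slightly higher differences throughout the array, with a median of -0.07 for genes with 3 to 5 probe sets and -0.13 for those with 30 or more. Their spread was also wider, with an SD over genes of 0.52, against 0.29 for those with 30 or more. Tomm7 and Timm8b have 5 probe sets each, which puts both called members in the class with the widest spread, and Slc25a25 has 30. By level the members did not follow 1 course. Among the 4160 brightest genes the 23 members had a median of 0.09 with 60.9% above 0, against a median of -0.05 with 43.7% above 0 over all 4160. Among the 4160 next in level the 11 members had a median of -0.32 with 9.09% above 0, against -0.13 with 31.9% above 0 over all of them. The 15 and 9 members in the classes below had medians of -0.04 and -0.11, against -0.12 and -0.12 over all genes there. The part of level or probe set number in the values above was not tested.

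**Figure D5:**
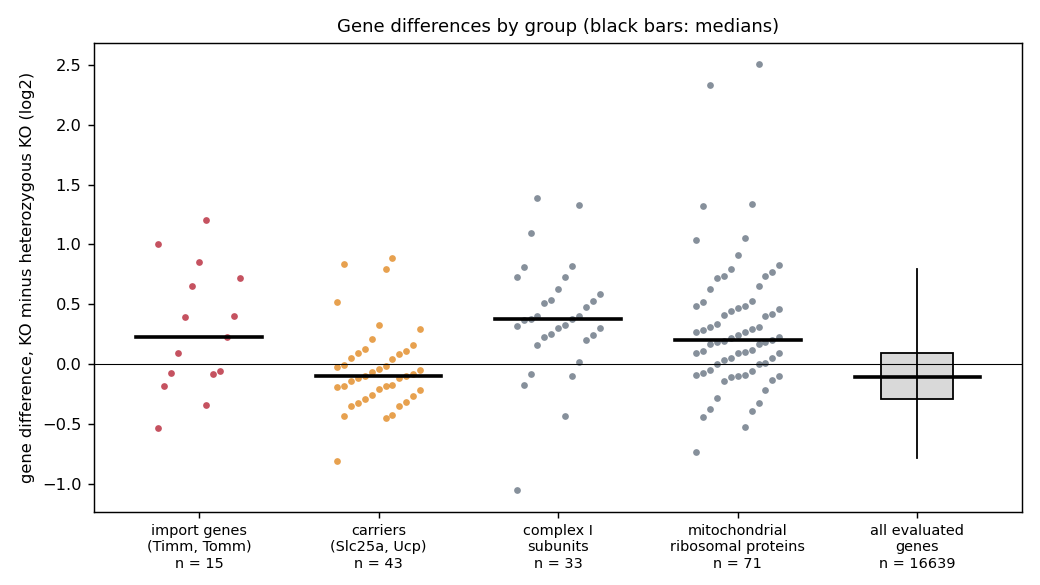
Gene differences between the FoxO1 KO and the heterozygous KO array (log2, vertical axis) for import genes, carriers, complex I subunits and mitochondrial ribosomal proteins (dots are genes, black bars medians), and for all evaluated genes (box from the lower to the upper quartile, line from -0.79 to 0.79, leaving out 2.5% of genes at either end). The medians are 0.22, -0.10, 0.37, 0.20 and -0.11.

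Other genes of import and processing that carry no Timm or Tomm name had a median of 0.15 over 20 evaluated of 24 listed. Above 0 lay 12 of them, where 34.8% of all genes did. One direction each, 1 was called higher and 1 lower, against 1.13% and 1.12% of all genes. The 2 called genes are paralogs that regulate the import motor and went opposite ways. Dnajc15 stood at 8.44 in KO cells and 7.18 in heterozygous KO cells, its difference was 1.27 (SD 0.80), and all 8 probe sets were higher. Dnajc19 stood at 8.39 in KO cells and 9.22 in heterozygous KO cells, its difference was -1.004 (SD 1.25), and 6 of 8 probe sets were lower.

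Genes of other transport across the mitochondrial membranes had a median of -0.07 over 16 evaluated of 18 listed. Above 0 lay 6 of them, where 34.8% of all genes did, and 1 was called higher, against 1.13% of all genes. Mpc1, a subunit of the pyruvate carrier and listed as Brp44l, was the 1 called gene and the highest, with 8.74 in KO cells, 7.34 in heterozygous KO cells and a median of 1.16 (SD 0.83) over 14 probe sets, 13 of them higher. Letm1, an ion exchanger of the inner membrane, was lowest at -0.51 (SD 1.17). Of 11 regulators of mitochondrial biogenesis 9 were below 0, where 65.2% of all genes were. Their median was -0.14, against -0.11 over all genes, and 1 was called higher, against 1.13% of all genes. The coactivator Ppargc1a was lowest at -0.74 (SD 0.41, 12 of 12 probe sets lower). Tfb1m, a ribosomal RNA methyltransferase of the organelle, was the 1 called gene, at 2.17 (SD 0.37) over only 4 probe sets, all higher. Its level was 8.42 in KO cells and 6.39 in heterozygous KO cells, where the minimum level was 5.86.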

How the data were processed

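Gene expression was measured in FACS-sorted AgRP neurons on 1 array per genotype (FoxO1 KO and FoxO1 heterozygous KO). The deposited values are log2 values per probe set, the log base being taken from their range (2.55 to 14.1 on the KO array, 2.53 to 14.1 on the heterozygous array). RMA and Partek made them, per the submitters' processing notes, without versions. Total RNA was extracted with Trizol and labelled by a Nugen protocol, per the labels' protocols. The sources used here do not name the genome build of the probe sets. RMA as usually run forces both arrays to like distributions, which would hide a shift in overall RNA amount.

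Of 1235936 probe sets, 318760 had 1 gene symbol in GEO's platform annotation, 6684 several and 910492 none. Gene names came from the first kind, and all 62 members are current symbols in RefSeq (GRCm38.p6). Of 77 RefSeq genes whose symbol fits the name rule, 15 had no such probe set under it, of which 6 were evaluated under 1 older symbol. The gene summary and call rule are given with the results. They were computed over all 16639 evaluated genes, with Python 3.11.15, numpy 2.4.6 and pandas 2.3.3 (figures with matplotlib 3.10.9). The rule was tested on simulated data, with differences shuffled among probe sets of like level and changes larger than 2-fold added to some genes. Shuffling parts the probe sets of a gene, so the test cannot show how often unchanged genes are called here.

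With 1 array per genotype no p-value is given, and precision is limited by the number of arrays. Genes were named by rule: called members, the highest and lowest of each role group, the 5 highest and 5 lowest members, label checks (Foxo1, Agrp, Npy, Gpr17), fixed genes (Slc25a3, Slc25a4, Slc25a5, Ucp2, Tomm20, Tomm40, Timm23, Timm44 and the small Timm genes), and called or extreme genes of the other import list. Others were named after their values were seen, as the motifs were chosen. The members and lists were chosen with earlier results of these data known.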

Additional observations from a re-analysis of the deposited data

Results flagged for a closer look

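The 12 probe sets that carry the symbols Timm10 and Timm13 together lie outside the gene summaries and were higher on the KO array throughout. Their median level was 8.98 in KO cells, against 8.63 in heterozygous KO cells, and their median difference was 0.55 (SD 0.31 over probe sets of 1 pair of arrays). Both genes encode small chaperones of the intermembrane space, and which of them a probe set reads is not known here.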

How the results depend on the processing

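Each value was recomputed with no minimum level, with the minimum at the 75th percentile or met on both arrays, with the mean over probe sets, with at least 1 or at least 5 probe sets, with the trend on level removed, with quantile normalization repeated, with genes centred on their median, and with probe sets of several symbols. The 2 genes called higher became 1 with the mean over probe sets, and 5 under the 1.5-fold rule, which also called 1 gene lower in place of none. The other settings, and no rule on agreement, gave values within 1.5 times. Of 110 list medians 87 moved by 0.1 or less.

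Centring adds 0.11 to every gene. The medians then were 0.045 over members, 0.010 over carriers, 0.33 over import genes, 0.16 for ADP/ATP and phosphate carriers, -0.11 for ATP-Mg, coenzyme and nucleotide carriers, 0.010 for amino acid and related carriers, 0.018 for uncoupling proteins and relatives, -0.033 for carriers without an agreed substrate, 0.11 for di- and tricarboxylate carriers, 0.21 for inner membrane translocases and 0.33 for the outer membrane translocase. Without a minimum level, import genes and the outer membrane translocase were both at 0.056. When 1 probe set was enough, the outer membrane translocase was at 0.020. Means over probe sets put it at -0.022, inner membrane translocases at 0.40, di- and tricarboxylate carriers at 0.19 and ADP/ATP and phosphate carriers at 0.17. With the minimum at the 75th percentile, ADP/ATP and phosphate carriers were at 0.19, inner membrane translocases at 0.21 and uncoupling proteins and relatives at 0.52 over 3 genes. With the minimum met on both arrays, ATP-Mg, coenzyme and nucleotide carriers were at -0.10 and inner membrane translocases at 0.21. The cause of these moves was not tested, other than the constant of centring.

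Of the 58 members 23 changed sign in 1 or more settings, none of them called, and 2 (Slc25a35 and Tomm20l, both without a minimum level) moved by more than their SD over probe sets. Slc25a27 was called when genes were centred, at 1.0003. No paired analysis was possible because there is 1 array per genotype.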
